A study of Mus musculus with 7 samples.

Results

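The S100 and annexin genes described here were 10 members chosen by symbol from the count table, which lists 35976 gene symbols. They were the S100 genes S100a8, S100a9, S100a4, S100a6, S100a10 and S100a11 and the annexin genes Anxa1, Anxa2, Anxa3 and Anxa5. RNA came from lineage-negative cells, the progenitor-rich fraction left after magnetic removal of cells with mature lineage markers, of C57BL/6 mouse fetal livers at stage E14.5. The knockout group held 4 libraries labelled CD45.2(+) Vav1-iCre Brd9fl/fl, and the control group held 3 libraries labelled CD45.2(+) Brd9fl/fl. In both groups Brd9, the gene of a bromodomain protein in a form of the BAF chromatin remodeller, was floxed. The knockouts in addition carried Vav1-iCre, a recombinase driven in blood cells by the Vav1 promoter, which leaves Brd9 intact in cells that do not use that promoter. Since no control carried it, effects of the recombinase and of Brd9 loss cannot be told apart. Whether each library came from a single embryo is not stated, and the p-values therefore cover no more than the variation from library to library, part of which may be technical.

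S100 proteins are small calcium-binding proteins with EF-hand motifs that mostly act as dimers. S100A8 and S100A9 pair to form calprotectin, a major cytosolic protein of neutrophils that sequesters metal ions and, once released, signals to other cells. Annexins bind the phospholipids of membranes when calcium is present, and several of them dock an S100 partner, such as S100A10 on annexin A2. In blood formation, S100a8 and S100a9 are switched on as granulocytes and monocytes mature, whereas S100a10, S100a11, Anxa2 and Anxa5 are transcribed in many cell types.

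Total counts ran from 18748885 to 21861876 in the knockouts and from 21831430 to 23571878 in the controls. Brd9 stood at 8.57 to 13.2 CPM in the knockouts and 30.6 to 36.5 CPM in the controls, so each library lay on the side that its label gives. CPM are read counts brought to a common library size, with library totals scaled by the trimmed mean of M values (TMM). Of 10 stem and progenitor markers, all 10 were detected well enough to test, with summed levels of 591 to 803 CPM in the knockouts and 763 to 1015 CPM in the controls. The fraction also held erythroid transcripts (5137 to 6995 CPM in the knockouts and 3171 to 5464 CPM in the controls, summed over 13 markers) and hepatocyte transcripts (13610 to 24110 CPM in the knockouts and 10660 to 18830 CPM in the controls, over 12 markers). In such bulk RNA, fewer cells of a type and less RNA per cell cannot be told apart.

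The comparison asks whether transcripts of these calcium-binding proteins differed between the lineage-negative fractions of the knockout and control groups. All 10 genes passed the filter on low counts, and 0 of 10 were called changed by edgeR's quasi-likelihood test at a Benjamini-Hochberg adjusted p under 0.05. Over all 14679 genes tested, 0.559% were called, 0.545% as lower, and limma-voom also called 0 of the 10. Of the members, 5 had lower and 5 had higher fitted levels in the knockouts. At an unadjusted p under 0.05 there were 3 lower members, S100a8, S100a9 and Anxa3, and 1 higher member, S100a6, where 10.9% of all genes tested passed. DESeq2 called 1 member lower, Anxa3, against 2.68% of all genes. The groups had no overlap for 1 member, again Anxa3, against 11.2% of all genes tested in either direction and 6.81% with the knockouts lower.

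**Figure D1:**
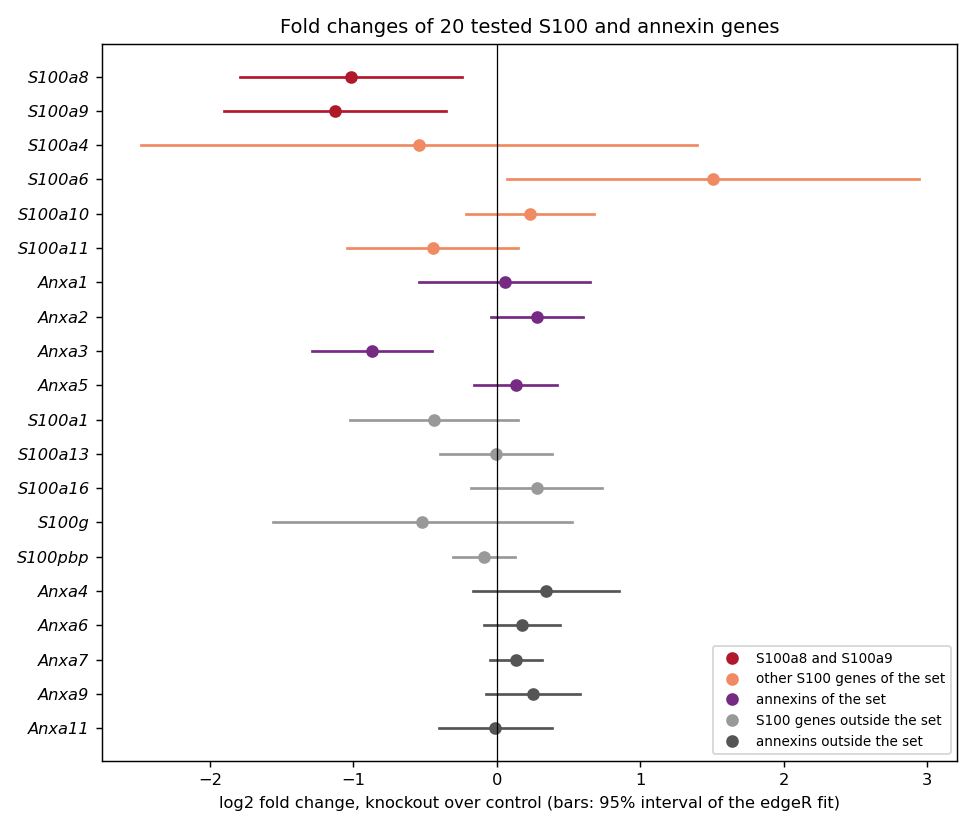
Log2 fold changes, knockout over control, of the 20 S100 and annexin genes tested, S100pbp counted among them, with the 10 members on top. Points are edgeR estimates and bars their 95% intervals; the intervals of S100a8, S100a9 and Anxa3 lie below 0 and that of S100a6 above 0, and 0 of the 20 genes passed an adjusted p under 0.05.

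S100a8 and S100a9, the calprotectin pair, were the most abundant members and were on average lower in the knockouts, with overlapping groups. S100a8 (NCBI gene 20201) spans bases 90669071 to 90670034 of chromosome 3 (plus strand), and S100a9 (NCBI gene 20202) spans bases 90692630 to 90695721 (minus strand), in RefSeq's annotation of GRCm38.p6. The promoter sequences of this pair are shown because the pair had near parallel levels in the 7 libraries, given below. Each line gives RefSeq's 250 bases before the annotated start and the 20 bases after it, 5′ to 3′ on the gene's strand, at chr3:90668821-90669090 for S100a8 and chr3:90695702-90695971 for S100a9. Capitals mark matches to GAGGAA, the core of the sites bound by the myeloid factor PU.1, and to TTGCNNAA, a C/EBP motif, both searched on both strands. They also mark TATAAA on the gene's strand, a motif added after the sequences were seen.
S100a8: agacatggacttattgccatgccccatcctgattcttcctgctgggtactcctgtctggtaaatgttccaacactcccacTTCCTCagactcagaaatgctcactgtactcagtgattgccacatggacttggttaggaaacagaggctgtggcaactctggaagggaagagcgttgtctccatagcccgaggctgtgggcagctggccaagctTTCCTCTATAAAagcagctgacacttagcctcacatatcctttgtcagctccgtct
S100a9: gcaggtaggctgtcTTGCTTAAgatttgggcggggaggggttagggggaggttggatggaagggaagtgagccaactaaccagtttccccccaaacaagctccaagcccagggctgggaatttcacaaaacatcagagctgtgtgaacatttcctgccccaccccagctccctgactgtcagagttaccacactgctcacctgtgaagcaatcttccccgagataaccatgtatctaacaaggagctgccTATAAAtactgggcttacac

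The S100a8 window held GAGGAA on the reverse strand, read as TTCCTC, at 170 and at 36 bases before the start, the second one directly before TATAAA at 30 bases before the start. The S100a9 window held 1 match to TTGCNNAA, at 236 bases before the start, and TATAAA began at the annotated start itself. Among all 32851 RefSeq windows of 300 bases, 28.3% held GAGGAA, 10.8% held TTGCNNAA and 8.32% held TATAAA. Of the other members with a window in that table, GAGGAA was found in those of S100a4, S100a11 and Anxa1 and TTGCNNAA in that of Anxa1. TATAAA was found in those of S100a4, Anxa1 and Anxa2, so it was not particular to the pair. Such matches describe letters, not binding.

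S100a8 had 164, 220, 470 and 190 CPM in knockout replicates 1 to 4 and 365, 596 and 623 CPM in control replicates 1 to 3. Knockout replicate 3 lay above the lowest control, and the other 3 knockouts lay below every control. The means were 261 ± 141 CPM in the knockouts (SD, n = 4) and 528 ± 142 CPM in the controls (SD, n = 3), a log2 fold change of -1.02 (95% interval -1.79 to -0.24, edgeR adjusted p = 0.320). S100a9 ranked the knockouts in the same order, with 234, 325, 664 and 305 CPM in the knockouts and 531, 1008 and 963 CPM in the controls. Its means were 382 ± 192 CPM in the knockouts and 834 ± 263 CPM in the controls, a log2 fold change of -1.13 (95% interval -1.90 to -0.35, edgeR adjusted p = 0.253). Neither gene passed with all libraries. Knockout replicate 3 was the highest knockout for both genes, so leaving it out enlarges the fall. Without it the log2 fold changes were -1.47 for S100a8 (edgeR adjusted p = 0.018) and -1.54 for S100a9 (edgeR adjusted p = 0.026). These were the 2 of 9 members tested that were called, in a fit that called 0.825% of 14542 genes. Leaving out any other single library called neither gene. The edgeR adjusted p then ran from 0.279 to 0.658 for S100a8 and from 0.183 to 0.592 for S100a9. In the authors' deposited table, made from the 7 libraries with DESeq2, the adjusted p was 0.484 for S100a8 and 0.334 for S100a9.

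**Figure D2:**
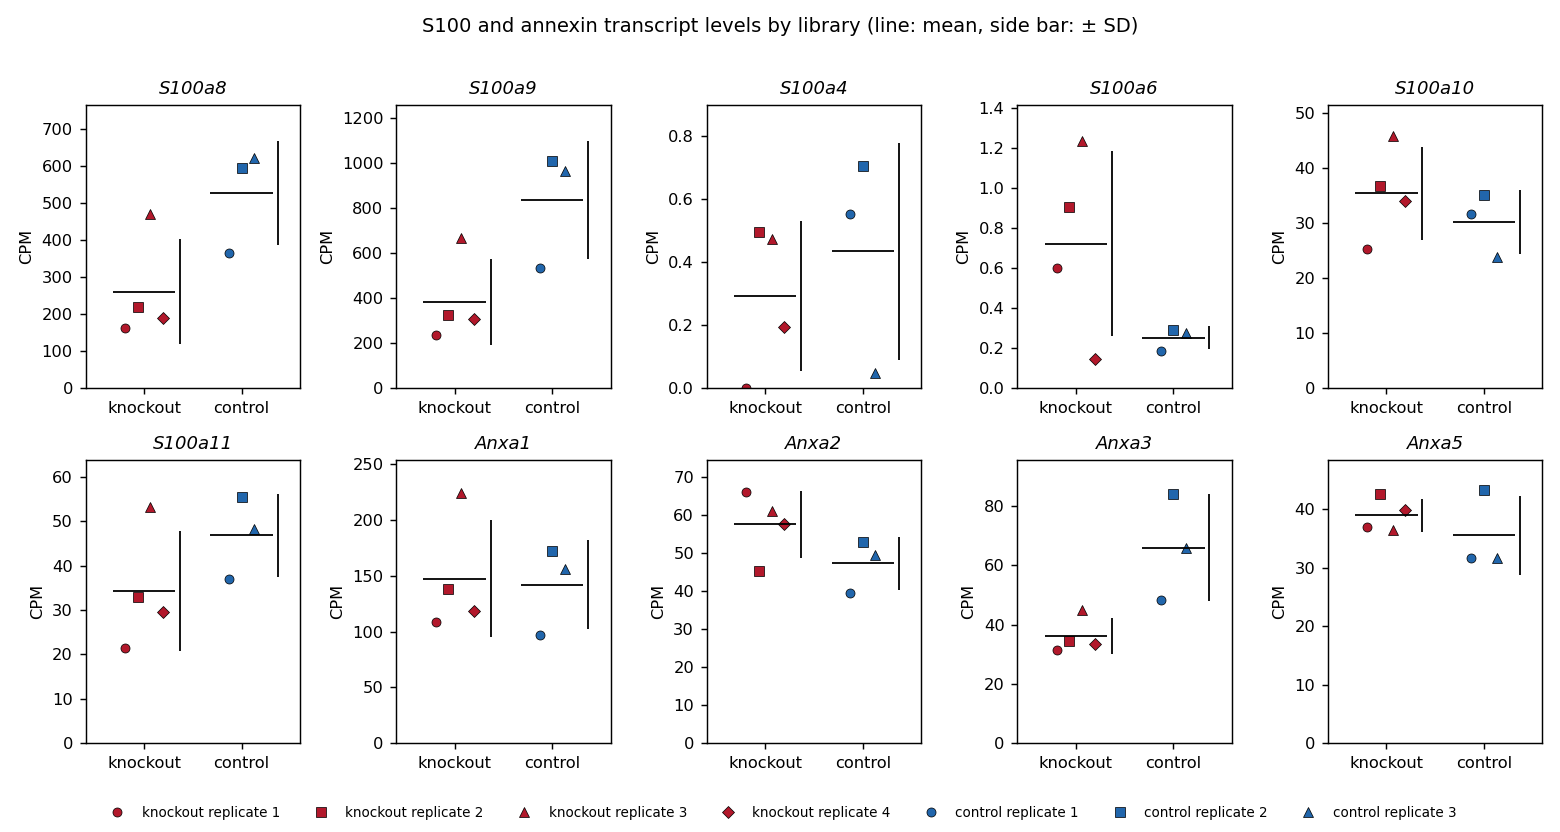
CPM of the 10 members in each library, knockouts left and controls right, on linear axes from 0; the horizontal line is the group mean and the side bar ± SD (n = 4 and 3). Anxa3 is the member whose groups do not overlap, and knockout replicate 3 (triangle) lies above the other knockouts for S100a8, S100a9, S100a10, S100a11, Anxa1, Anxa3 and S100a6.

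Among the general S100 genes, S100a10 and S100a11 were well measured, and S100a4 and S100a6 were barely detected. S100a10, the p11 subunit that pairs with annexin A2 and lacks a working calcium site, had 25.3, 36.8, 45.8 and 34.0 CPM in the knockouts and 31.7, 35.1 and 23.8 CPM in the controls. The groups overlapped widely, with a log2 fold change of 0.23 (95% interval -0.21 to 0.68, edgeR adjusted p = 0.716). S100a11, which binds annexin A1, had 21.5, 32.9, 53.1 and 29.6 CPM in the knockouts and 36.9, 55.4 and 48.3 CPM in the controls. Of the knockouts, 3 lay below every control and replicate 3 lay between the highest controls, and the log2 fold change was -0.45 (95% interval -1.04 to 0.15, edgeR adjusted p = 0.605).

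S100a4, a binding partner of non-muscle myosin that is also used as a marker of fibroblasts and of some macrophages, had 0, 11, 10 and 4 reads in the knockouts and 12, 17 and 1 reads in the controls. Its exons overlap those of the GENCODE gene Gm42674, which has no row in the count table. S100a6, known as calcyclin, had 11, 20, 26 and 3 reads in the knockouts and 4, 7 and 6 reads in the controls. Knockout replicate 4 lay below every control, while the other 3 knockouts lay above every control. The fitted log2 fold change of S100a6 was 1.51 (95% interval 0.07 to 2.94, edgeR adjusted p = 0.436). S100a6 reached the filter through its counts in the knockouts, where it was higher, so its passing the filter is no support for a difference. At such counts, differences of the size seen for S100a8 were not detectable for S100a4: its interval ran from -2.48 to 1.39 (log2 fold change -0.54, edgeR adjusted p = 0.853).

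The annexins did not share a direction. Anxa3, an annexin of neutrophil granules and of several epithelia, had 31.3, 34.5, 45.0 and 33.4 CPM in the knockouts and 48.2, 84.0 and 65.6 CPM in the controls. Every knockout lay below every control. Its means were 36.1 ± 6.1 CPM in the knockouts (SD, n = 4) and 65.9 ± 17.9 CPM in the controls (SD, n = 3), 1.83-fold lower (log2 fold change -0.87, 95% interval -1.29 to -0.45). The edgeR adjusted p of 0.090 missed the threshold. DESeq2 on the same genes gave an adjusted p of 0.0013, and the authors' deposited table gives 0.00126 with a log2 fold change of -0.868. In edgeR the call was also made with no filter on low counts (adjusted p = 0.014, where 0.937% of genes were called) and without control replicate 1 (adjusted p = 0.033, where 0.637% were called). Over all alternatives the adjusted p ran from 0.0013 to 0.272. Gm42603, a GENCODE gene with no row in the count table, overlaps exons of Anxa3. Anxa3 spans bases 96793385 to 96845968 of chromosome 5 (plus strand, GRCm38.p6).

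Anxa1, a regulator of inflammation and leukocyte migration that signals through formyl peptide receptors, had the highest CPM of the 4 annexin members. It had 109, 138, 224 and 119 CPM in the knockouts and 96.96, 172 and 156 CPM in the controls. Both the lowest value, in control replicate 1, and the second highest, in control replicate 2, were controls, and knockout replicate 3 was the highest. The log2 fold change was 0.05 (95% interval -0.54 to 0.65, edgeR adjusted p = 0.962), and its sign turned without knockout replicate 3 (-0.22) or control replicate 1 (-0.15). Differences of up to 1.57-fold higher thus lay within the interval.

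Anxa2, which with S100A10 forms a membrane-bound complex that binds plasminogen and its activator, had 66.1, 45.5, 61.2 and 57.7 CPM in the knockouts and 39.6, 52.9 and 49.6 CPM in the controls. Of the knockouts, 3 lay above every control, and replicate 2 lay between the controls (log2 fold change 0.28, 95% interval -0.04 to 0.60, edgeR adjusted p = 0.531). Its exons overlap those of the antisense gene Gm16144, which has no row in the count table, and the strand setting of the counting is not given in the sources used here. Anxa5, which binds phosphatidylserine and is used to stain dying cells, had 36.9, 42.6, 36.4 and 39.9 CPM in the knockouts and 31.7, 43.3 and 31.7 CPM in the controls. Knockouts lay within the range of the controls throughout, with a log2 fold change of 0.13 (95% interval -0.16 to 0.42, edgeR adjusted p = 0.752).

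Levels were ranked between genes after division by exon length, here the union of GENCODE M21 exons. That union can be longer than the transcripts expressed, and the annotation used for counting is not given. The ranks are therefore approximate. S100a9 led in both groups, with 732 ± 368 CPM per kb in the knockouts (SD, n = 4) and 1600 ± 505 CPM per kb in the controls (SD, n = 3). S100a8 came next, at 376 ± 204 and 760 ± 204 CPM per kb in knockouts and controls. S100a11 followed with 67.1 ± 26.3 CPM per kb in the knockouts and 91.6 ± 18.3 CPM per kb in the controls, ahead of Anxa1 with 50.6 ± 18.0 and 48.7 ± 13.6 CPM per kb in knockouts and controls. In the knockouts the spreads (mean ± SD) of S100a9 and S100a8 overlapped, as did those of S100a11 and Anxa1. S100a10 (29.3 ± 7.0 CPM per kb in knockouts and 24.9 ± 4.8 in controls) and Anxa5 (21.9 ± 1.6 in knockouts and 20 ± 3.8 in controls) came after these. In the controls Anxa3 stood above Anxa2, at 18.1 ± 4.9 against 12.7 ± 1.9 CPM per kb. In the knockouts Anxa3 stood below Anxa2, at 9.90 ± 1.67 against 15.4 ± 2.4 CPM per kb. Spreads also overlapped for Anxa1 and S100a10 in the knockouts and for S100a10 and Anxa5 in both groups. In the controls they overlapped for Anxa5 and Anxa3 and for Anxa3 and Anxa2.

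The libraries of a group differed in parallel for many of these genes. Of the 8 members with a mean of at least 1 CPM, 6 were highest among the knockouts in replicate 3, namely S100a8, S100a9, S100a10, S100a11, Anxa1 and Anxa3, and in these 6 replicate 1 was the lowest. Over all genes tested, 32.9% were highest in knockout replicate 3, and 13.2% were also lowest in replicate 1. In the controls, replicate 1 was the lowest for 7 of the 8, S100a10 being the exception, against 32.5% of all genes tested. For Anxa5 that order rests on 31.66 CPM in replicate 1 and 31.68 CPM in replicate 3. Anxa2 and Anxa5 did not follow the order of the knockouts: Anxa2 was highest in replicate 1 and Anxa5 in replicate 2.

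Summed neutrophil and monocyte markers were likewise highest in replicate 3 and lowest in replicate 1 among the knockouts, and lowest in replicate 1 among the controls. The 12 late neutrophil markers, among them Camp, Ltf, Lcn2 and Ngp, summed to 150, 250, 564 and 272 CPM in the knockouts and 472, 986 and 845 CPM in the controls, so replicate 3 lay above the lowest control there too. The 6 early granule genes summed to 1133 to 2134 CPM in the knockouts and 3656 to 6341 CPM in the controls, with no overlap. The 8 monocyte markers summed to 31.7 to 112 CPM in the knockouts and 174 to 280 CPM in the controls, and the 11 macrophage markers to 26.8 to 76.7 CPM in the knockouts and 116 to 200 CPM in the controls. The macrophage sum had another order of libraries, with replicate 4 the highest knockout and replicate 1 the highest control. Of these lists, edgeR called 6 of 6 early granule genes lower, 2 of 10 tested late neutrophil genes, 1 of 8 monocyte genes and 1 of 9 tested macrophage genes, and 0 higher, with median log2 fold changes of -1.57, -0.83, -0.89 and -1.34. Over all genes tested, 0.545% were called lower and the median was 0.011. Of the called genes, Chil3 of the late neutrophil list averaged 0.276 CPM in the knockouts and 3.47 CPM in the controls. Siglec1, the called macrophage gene, averaged 0.236 CPM in the knockouts and 3.58 CPM in the controls. Both reached the filter through the controls, so their passing it is no support for a difference. Without knockout replicate 3, which stands apart in the late neutrophil sum, the calls were 6, 3, 2 and 1 in these 4 lists. That fit called 0.825% of all genes tested. The 12 eosinophil, basophil and mast cell markers summed to 203, 365.5, 734 and 335 CPM in the knockouts and 305, 661 and 543 CPM in the controls. The highest and lowest knockout and the lowest control were thus the same libraries as for the neutrophil and monocyte sums. Knockout replicate 3 lay above every control in this list. Prg2 alone made up 558 of the 734 CPM in knockout replicate 3 and 416 of the 661 CPM in control replicate 2. Of 9 genes tested, 1 was called lower, Epx, which averaged 3.39 CPM in the knockouts and 61.9 CPM in the controls. No marker of these 5 lists was without reads in all libraries. The part of such cells in the S100 and annexin levels was not tested.

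**Figure D3:**
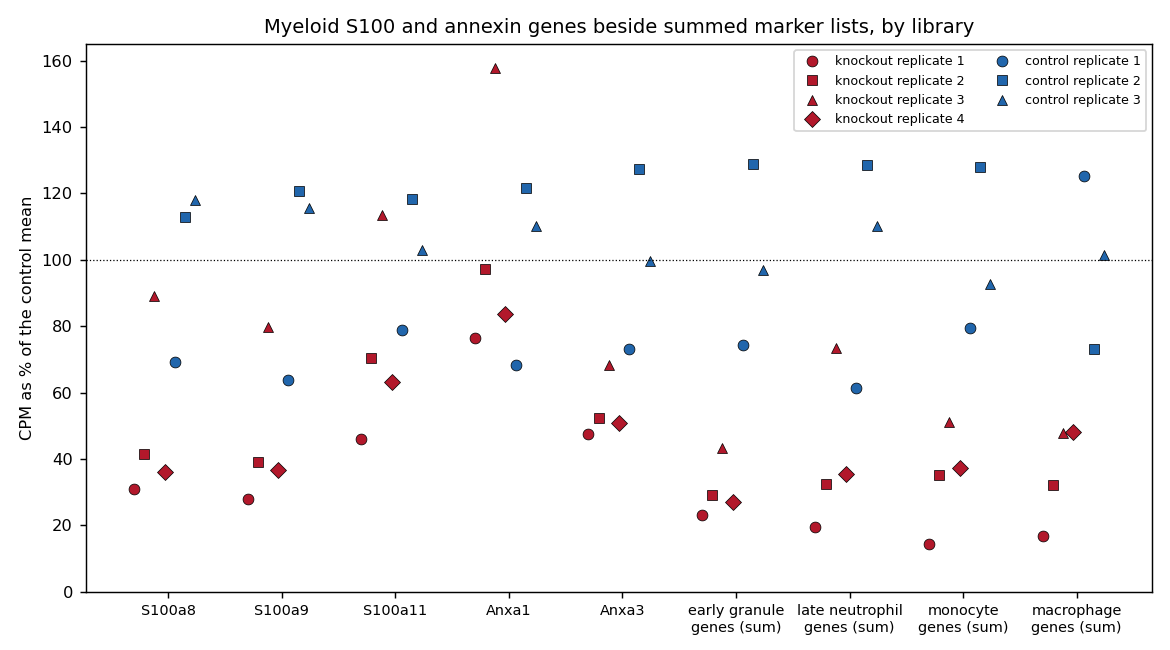
CPM in each library as a percentage of the control mean for S100a8, S100a9, S100a11, Anxa1 and Anxa3 and for the summed early granule, late neutrophil, monocyte and macrophage markers, on a linear axis from 0 with knockouts left of controls in each column. Knockout replicate 3 stood at 89.03% for S100a8 and 79.7% for S100a9, beside 73.6% for the late neutrophil sum and 43.3% for the early granule sum.

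Stromal, endothelial and megakaryocyte cells also transcribe several of these genes. The 10 stromal and stellate markers summed to 71.6 to 169 CPM in the knockouts and 60.3 to 108 CPM in the controls. Reln alone made up 103 of the 169 CPM in knockout replicate 1, and the collagen genes Col1a1, Col1a2 and Col3a1 were highest in knockout replicate 3. The 10 endothelial markers summed to 203 to 255 CPM in the knockouts and 213 to 333 CPM in the controls. The 9 megakaryocyte and platelet markers summed to 493 to 1279 CPM in the knockouts and 779 to 1441 CPM in the controls. The 9 lymphoid markers, of which 4 could be tested, summed to 10.4 to 36.8 CPM in the knockouts and 20.3 to 39.2 CPM in the controls. With all libraries edgeR called 0 genes of these 4 lists, while DESeq2 called 1 endothelial and 1 lymphoid gene lower, and edgeR without knockout replicate 3 called 1 lymphoid gene. Their part in the levels of the members was not tested either.

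Counts of partner genes were compared within each library, where scaling cancels out. The ratio of S100a8 to S100a9 counts was 0.700, 0.677, 0.707 and 0.623 in the knockouts and 0.687, 0.591 and 0.647 in the controls. The pair thus kept a narrow ratio while the level of S100a8 ran from 164 to 623 CPM over the 7 libraries, and the mean log2 ratio differed by 0.078 between knockouts and controls (exact permutation test, two-sided, p = 0.343). The ratio of S100a10 to Anxa2 was 0.383, 0.810, 0.748 and 0.589 in the knockouts and 0.801, 0.664 and 0.479 in the controls, a difference in mean log2 ratio of -0.060 (exact permutation p = 0.829). The ratio of S100a11 to Anxa1 was 0.198, 0.239, 0.237 and 0.250 in the knockouts and 0.380, 0.321 and 0.309 in the controls. Every knockout lay below every control, knockout replicate 3 included, and the difference in mean log2 ratio was -0.54. The exact permutation p was 0.0286, the smallest that 4 against 3 libraries can give, and 0.0857 adjusted over the 3 ratios.

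**Figure D4:**
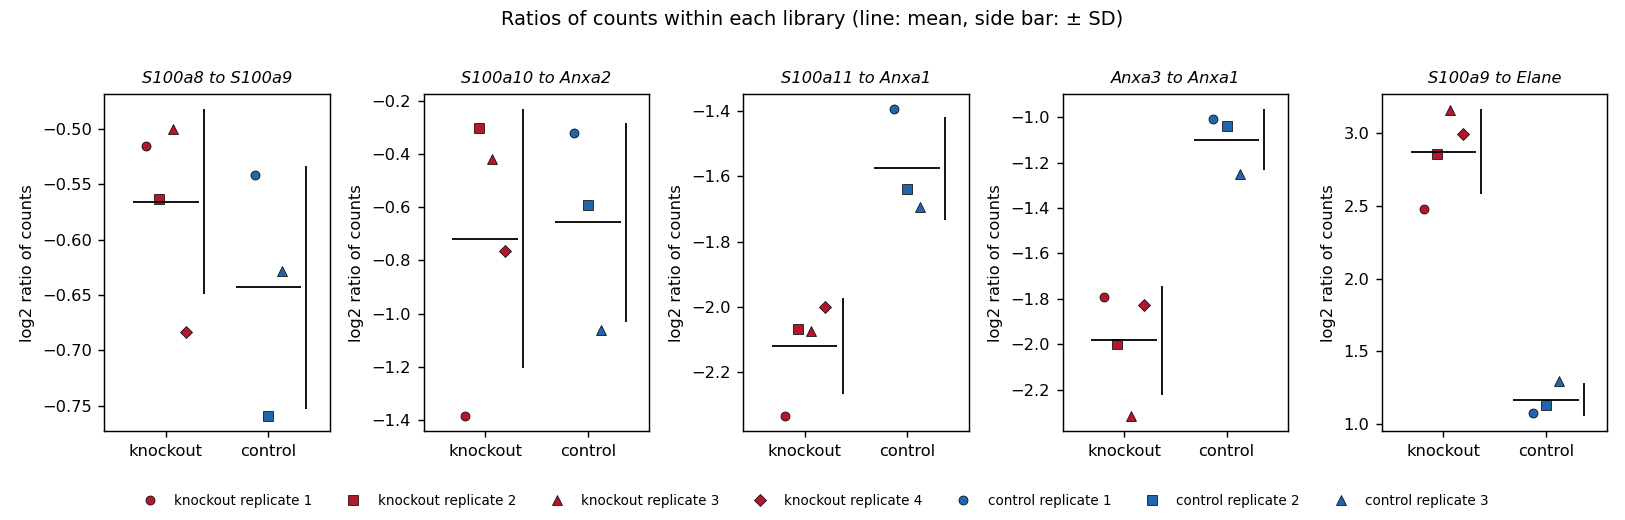
Log2 ratios of counts within each library for 5 pairs of genes, knockouts left and controls right; the line is the group mean and the side bar ± SD, and each panel has its own axis, which does not start at 0. The groups overlap for S100a8 to S100a9 and S100a10 to Anxa2 and are apart for S100a11 to Anxa1, Anxa3 to Anxa1 and S100a9 to Elane. Anxa3 to Anxa1 and S100a9 to Elane were chosen after the values were seen and were not tested.

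Further ratios were chosen after the values were seen and are given with no test. The ratio of Anxa3 to Anxa1 counts was 0.201 to 0.289 in the knockouts and 0.420 to 0.497 in the controls, and that of Anxa3 to Anxa2 was 0.475 to 0.760 in the knockouts and 1.22 to 1.59 in the controls. Neither pair of ranges overlapped, and the groups did not overlap for Anxa3 alone either. Against Elane and Camp, the genes with the smallest p of the early granule and late neutrophil lists, S100a9 stood higher in the knockouts. Its counts were 5.58 to 8.95 times those of Elane, the neutrophil elastase of early granules, in the knockouts and 2.11 to 2.46 times in the controls. Against Camp, a cathelicidin of later granules, the ratio was 74.0 to 106.5 in the knockouts and 4.48 to 4.84 in the controls. Elane and Camp had log2 fold changes of -2.89 and -5.31, so higher ratios of S100a9 to them followed from that choice. The log2 fold change of S100a9 was above those of all 6 early granule genes, but of the 10 late neutrophil genes tested 4 lay below it and 6 above it. Among the 6, the log2 fold change was -0.53 for Ltf, -0.42 for Lcn2 and 1.97 for Mmp8, none of them called. Mmp8 was near the floor, with means of 1.84 CPM in the knockouts and 0.463 CPM in the controls. It reached the filter only with the knockouts counted, where it was higher, so its passing it is no support for a difference.

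The remaining S100 and annexin genes were low or little different. Of 20 further symbols, which include S100pbp, the gene of an S100P-binding protein, 10 passed the filter on low counts and 0 were called. S100a3, S100a5 and S100a7a had no read in any library. The tested ones were S100a1, S100a13, S100a16, S100g, S100pbp, Anxa4, Anxa6, Anxa7, Anxa9 and Anxa11. Their log2 fold changes ran from -0.52 for S100g to 0.34 for Anxa4, with edgeR adjusted p from 0.597 to 0.994 and overlapping groups in all 10. Anxa7 had the highest CPM of these 10, with 110 ± 9 CPM in the knockouts (SD, n = 4) and 99.9 ± 3.3 CPM in the controls (SD, n = 3). The S100a1 mean was 7.30 ± 2.19 CPM in the knockouts and 9.92 ± 2.09 CPM in the controls (edgeR adjusted p = 0.606).

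Of 16 receptors and partners of S100 and annexin proteins, 14 could be tested and 1 was called, with a median log2 fold change of -0.34. Over all genes tested, 0.545% were called lower and the median was 0.011. Tlr4, the lipopolysaccharide receptor that also responds to released S100A8 and S100A9, fell 2.40-fold. It had 3.11, 3.66, 4.93 and 3.899 CPM in the knockouts and 9.54, 9.23 and 9.38 CPM in the controls (log2 fold change -1.26, SE 0.18, edgeR adjusted p = 0.016). The controls lay close together and above every knockout, and 6.81% of all genes tested likewise had every knockout below every control. The call was lost without control replicate 1 (adjusted p = 0.053), 2 (0.059) or 3 (0.097) and without knockout replicate 2 (0.091) or 4 (0.063). Fpr2, a formyl peptide receptor that binds annexin A1, averaged 0.284 ± 0.218 CPM in the knockouts and 1.12 ± 0.29 CPM in the controls (edgeR adjusted p = 0.192). It had 1, 7, 12 and 4 reads in the knockouts and 17, 32 and 27 reads in the controls. Fpr2 reached the filter through the controls, so its passing it is no support for a difference. Ager, the gene of the receptor RAGE, averaged 2.48 ± 0.36 CPM in the knockouts and 3.15 ± 0.64 CPM in the controls (edgeR adjusted p = 0.640). Basigin (Bsg), which binds S100A9, averaged 434 ± 54 CPM in the knockouts and 385 ± 35 CPM in the controls (edgeR adjusted p = 0.638).

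Of 8 transcription factors of myeloid maturation, all tested, 8 were lower, 1 was called and the median log2 fold change was -0.56. Over all 14679 genes tested, 6994 were lower, 0.545% were called lower and the median log2 fold change was 0.011. Gfi1, a repressor needed for granulocyte formation, fell 3.07-fold (edgeR adjusted p = 0.0097, and 0.051 without knockout replicate 2). Without knockout replicate 3 the list held 2 calls, in a fit that called 0.825% of all genes tested. Cebpe, a C/EBP factor of late granulocyte maturation, had 24.2, 27.6, 49.2 and 29.7 CPM in the knockouts and 32.2, 62.8 and 50.02 CPM in the controls, the same order of libraries within the knockouts as S100a8 for the highest and the lowest (edgeR adjusted p = 0.504). Cebpa averaged 62.4 ± 7.5 CPM in the knockouts and 67.6 ± 5.9 CPM in the controls (edgeR adjusted p = 0.740). Cebpb averaged 15.3 ± 3.0 CPM in the knockouts and 16.5 ± 2.0 CPM in the controls (edgeR adjusted p = 0.850). Cebpd averaged 8.57 ± 2.39 CPM in the knockouts and 16.8 ± 1.92 CPM in the controls (edgeR adjusted p = 0.095). Spi1, the gene of PU.1, averaged 54.9 ± 14.4 CPM in the knockouts and 80.2 ± 20.2 CPM in the controls (edgeR adjusted p = 0.386). The values of Cebpe, Cebpa, Cebpb, Cebpd and Spi1 were chosen after they were seen.

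The genes most like S100a8 were sought by the correlation of log2 CPM deviations from the group mean over the 7 libraries. The search covered 10105 genes averaging 5 CPM or more, and predicted genes, clone names and pseudogenes were left out of it. Outside the members they were Stfa1, a stefin A cysteine protease inhibitor (r = 0.998), Psme1, a subunit of the proteasome activator (r = 0.993), and Tmem50a, a transmembrane protein (r = 0.993). Stfa1 belongs to a cluster of near-identical genes, so its reads may have been split between copies. S100a9 ranked 8th with r = 0.987, Anxa1 had r = 0.973, S100a11 0.955, Anxa3 0.832, S100a10 0.569, Anxa2 0.296 and Anxa5 0.032. These are descriptions over 7 points that share library depth and cell make-up, and fewer of them are free once the group means are removed. Knockout replicate 3 lay furthest from its group mean for S100a8 and so weighs most in these correlations.

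The members lie on 4 chromosomes. S100a4, S100a6, S100a8 and S100a9 lie within 92.0 kb of chromosome 3, and S100a10 and S100a11 within 44.2 kb of it, 2825 kb further on. Levels did not follow this neighbourhood: S100a4 and S100a6, in the same stretch as S100a8 and S100a9, averaged 0.291 and 0.720 CPM in the knockouts and 0.434 and 0.250 CPM in the controls. Anxa5 lies elsewhere on chromosome 3, Anxa3 on chromosome 5, Anxa2 on chromosome 9 and Anxa1 on chromosome 19.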

How the data were processed

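Per the labels' protocols, RNA of lineage-negative cells was purified on columns and made into stranded mRNA libraries. The deposited counts are whole numbers of reads for each gene symbol, not normalized. Per the submitters' processing notes, HISAT2, featureCounts, DESeq2 and mm10 were used; the sources used here give no versions, annotation or strand setting. The authors' deposited table holds log2 fold changes, p-values and a signal, which is counts divided by 1 constant per library.

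In edgeR 4.0.16 (R 4.3.3), low genes were removed by filterByExpr, libraries were scaled by TMM, and a model holding only the group was fitted by quasi-likelihood. Benjamini-Hochberg adjustment covered all 14679 genes. Intervals are 95% from that fit. Ratios of counts, with 0.5 added, were tested by an exact permutation test over 35 splits. The procedure was tested on simulated data. Alternatives were DESeq2 1.42.0, limma-voom (limma 3.58.1), other scalings and filters, a block on replicate number and leaving out each library.

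The members, gene lists and tests were chosen with earlier results of these data known. The named genes are the members, their tested relatives, called genes of the receptor and transcription factor lists or else the gene with the smallest p, and the 3 genes most like S100a8. For the marker lists of cell types, summed levels are given in place of single genes. Fpr2, Ager, Bsg, Cebpe, Cebpa, Cebpb, Cebpd, Spi1 and the ratios said to be untested fall outside that rule. So do the single marker genes described, such as Chil3, Siglec1, Epx, Prg2, Ltf, Lcn2, Mmp8, Reln and the collagen genes. Libraries of a group differed by more than sampling noise, with a chi-square per degree of freedom of 9.16 to 46.3. RefSeq promoter windows were found for 8 of the 10 members. Protein sequences are not used here.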

Additional observations from a re-analysis of the deposited data

How the results depend on the processing

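With all 7 libraries edgeR called 0 of 10 members and 82 of 14679 genes. With no filter on low counts it called 1 member and 228 genes, and DESeq2 called 1 member and 393 genes. Leaving out single libraries gave 0 to 2 members and 20 to 120 genes. DESeq2 size factors, total counts, a minimum mean of 1 CPM, limma-voom and the replicate block called 0 members, and the block called 121 genes. Same-numbered libraries did not deviate together (correlations 0.17, -0.0219 and -0.00523, and 2 of 6 libraries correlated best with their own number), so the numbers were not taken as pairs. Of 135 member fold changes under alternatives, 5 gained a call and 2 reversed, both of Anxa1: -0.22 without knockout replicate 3 and -0.15 without control replicate 1, in a range up to 0.22 over the libraries left out. Leaving out single libraries, the difference in log2 ratio ran from -0.60 to -0.45 for S100a11 to Anxa1, from 0.019 to 0.128 for S100a8 to S100a9, and from -0.26 to 0.16 for S100a10 to Anxa2, whose sign therefore rests on single libraries. S100a4 and S100a6, with at most 26 reads in a library, could be tested for large differences at most.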
